A study of Mus musculus with 6 samples.

Results

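The serpins of mouse liver were examined in mice lacking CREBH, a membrane-bound transcription factor of hepatocytes encoded by Creb3l3, and in wild-type (WT) mice. Members were the protein-coding genes of GENCODE M21 whose symbol is Serpin followed by a clade letter from a to i and a number, with or without a copy letter; 61 of the 55536 genes in the count files met this rule. RNA sequencing covered 3 libraries of CREBH-KO liver and 3 of WT liver, all from mice fasted for 14 h. Genotype was the only factor that differed in the labels. Strain, sex, age and the deleted stretch of Creb3l3 are not stated in the labels. The labels call the samples independent without stating that each is a separate mouse, so p-values measure the spread between these libraries only. The submitters record the loss of a first-read file for libraries CREBH-KO 2 and 3, and how those counts were made is not given.

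Serpins are a superfamily of proteins that mostly inhibit serine proteases. The target protease cuts an exposed reactive centre loop, the serpin refolds around the cut, and both proteins are locked in an inactive complex. The liver secretes much of the serpin content of plasma: alpha-1-antitrypsin (Serpina1), antithrombin (Serpinc1), alpha-2-antiplasmin (Serpinf2) and C1 inhibitor (Serping1). Some members carry hormones or assist protein folding in place of inhibiting proteases, and clade b members lack a classical signal peptide and act mainly inside cells. Humans have a single functional alpha-1-antitrypsin gene, whereas the mouse has several copies, as it does of the human SERPINA3 gene.

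Reads counted in genes ranged from 28106243 to 34146918 in the CREBH-KO libraries and from 31679996 to 39288819 in the WT libraries. Creb3l3 averaged 49.6 ± 6.79 CPM in CREBH-KO and 486 ± 16.6 CPM in WT (CPM, counts scaled by effective library size; mean ± SD, n = 3 each), and each CREBH-KO library lay below every WT library. The 8 hepatocyte markers were all tested, 1 of them (Apob) fell, and their summed level was 75535 to 82538 CPM in CREBH-KO and 67200 to 81034 CPM in WT.

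Of the 61 serpins, 33 had enough counts to be tested, 12 had between 3 and 37 counts over the 6 libraries, and 16 had none. Among the tested serpins 3 rose and 2 fell in CREBH-KO at an adjusted p under 0.05 (quasi-likelihood test of edgeR, adjusted over all 15589 genes tested). Of all tested genes 10.4% were called, 3.91% higher and 6.46% lower in CREBH-KO. The 5 calls are 15.2% of the tested serpins, a share near that background. The median log2 fold change (CREBH-KO over WT) was 0.15 over the tested serpins and 0.02 over all tested genes. For 8 of the 33 (24.2%) no CREBH-KO value fell within the WT range or the reverse, against 30.6% of all tested genes. The family as a whole took 3.53% to 4.03% of the gene counts in CREBH-KO and 2.70% to 2.82% in WT, so the libraries did not overlap. The Serpina1 copies alone took 2.16% to 2.42% of the counts in CREBH-KO and 1.38% to 1.44% in WT. Of the Serpina1 counts, Serpina1e made up 43.7% to 47.6% in CREBH-KO and 18.9% to 27.1% in WT. These shares are of counts without further scaling.

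**Figure D1:**
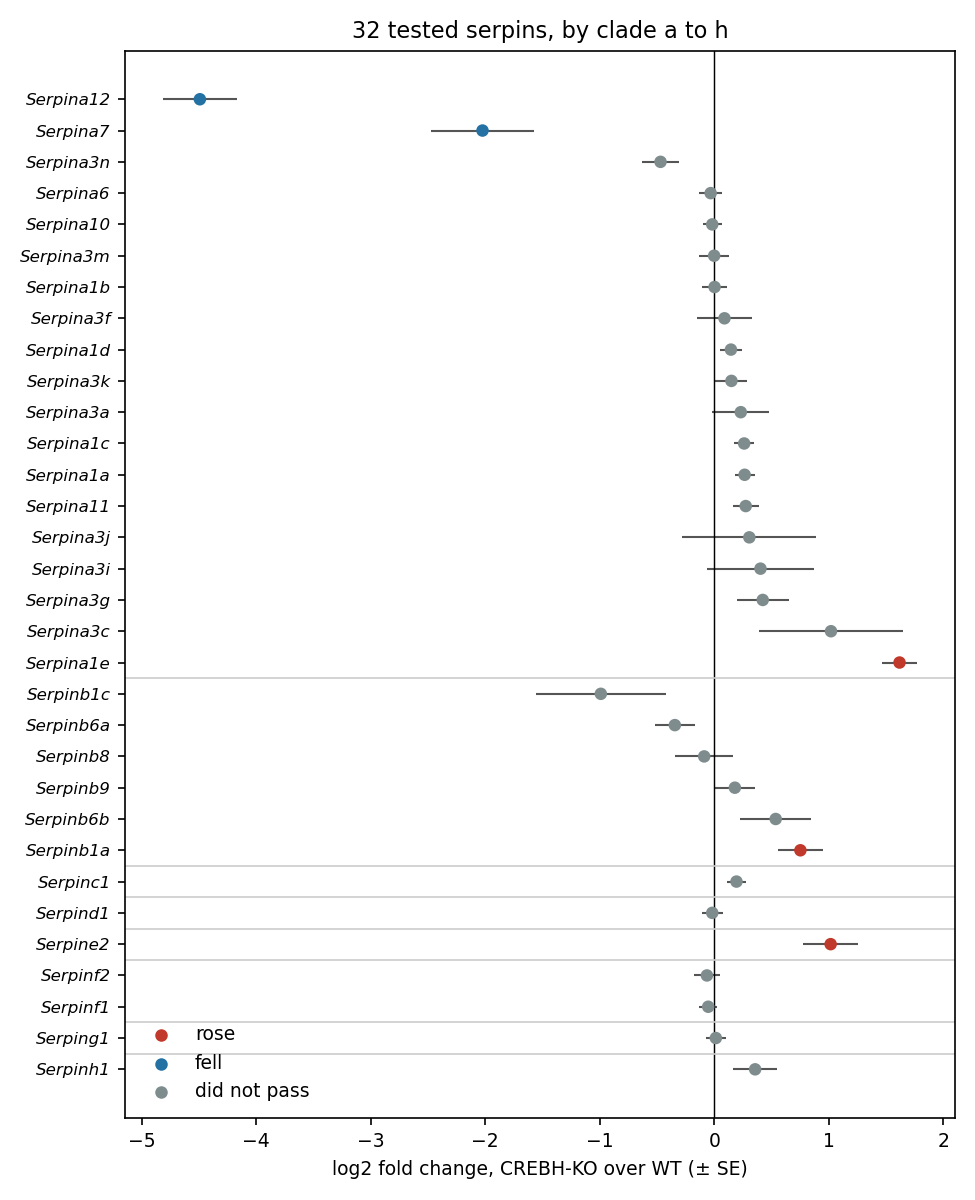
Log2 fold change (CREBH-KO over WT, horizontal axis, bars show SE) of 32 of the 33 tested serpins, grouped from clade a at the top to clade h at the bottom; red points rose, blue points fell and grey points did not pass. Serpina12 at -4.49 and Serpina1e at 1.62 lie at the extremes, and Serpina7, Serpine2 and Serpinb1a are the other coloured points.

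The Serpina1 genes encode alpha-1-antitrypsin, the main plasma inhibitor of neutrophil elastase in humans. Serpina1a to Serpina1e lie in 1 array on the minus strand of chromosome 12 (GRCm38), with Serpina1e (ENSMUSG00000072849) from 103946931 to 103958975. Their annotated reading frames of 413 codons were 96.3% to 98.5% identical over the 10 pairs. The stretch coding the reactive centre loop is shown because it meets the target protease; the copies also differ elsewhere in their reading frames. It was located from the conserved hinge of the loop, starts at the hinge glycine codon and runs for 72 bases of the GENCODE M21 transcripts; capitals mark the codon of the residue N-terminal to the cleaved bond (P1), which is codon 15 counted from that glycine.
Serpina1e: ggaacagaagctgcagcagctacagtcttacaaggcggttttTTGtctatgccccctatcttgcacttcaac
Serpina1a: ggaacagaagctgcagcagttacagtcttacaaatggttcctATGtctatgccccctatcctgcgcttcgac
Serpina1b: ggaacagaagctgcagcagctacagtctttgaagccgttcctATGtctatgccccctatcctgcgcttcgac
Serpina1c: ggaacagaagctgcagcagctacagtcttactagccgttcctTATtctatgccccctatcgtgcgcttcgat
Serpina1d: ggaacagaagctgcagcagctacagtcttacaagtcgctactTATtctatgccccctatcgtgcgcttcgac
Serpina1e differed from the other copies at 9 to 11 of these 72 bases, and its P1 codon was shared with none of them. Serpina1a and Serpina1b had the same P1 codon, as did Serpina1c and Serpina1d.

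Serpina1e rose in CREBH-KO while the neighbouring copies did not pass the test. Serpina1e had 10145, 8963 and 11273 CPM in CREBH-KO 1, 2 and 3, against 3954, 3174 and 2770 CPM in WT 1, 2 and 3. The lowest CREBH-KO library was far above the highest WT library. The log2 fold change was 1.62 ± 0.15 (SE, edgeR adjusted p = 4.74e-04), or 3.07-fold, and it was 1.60 with CREBH-KO 1 alone against WT, where the call was kept.

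Serpina1a had 2791, 2737 and 2707 CPM in CREBH-KO and 2361, 2151 and 2342 CPM in WT, with a log2 fold change of 0.27 ± 0.09 (SE, edgeR adjusted p = 0.0938). Serpina1c had 1182, 1211 and 1239 CPM in CREBH-KO and 1062, 941 and 1028 CPM in WT (0.26 ± 0.08, edgeR adjusted p = 0.0879). For both copies the groups did not overlap although the test was not passed. Both passed in DESeq2 (adjusted p = 0.0181 for Serpina1a and 0.0297 for Serpina1c). They also passed when counts were scaled by library size alone (edgeR adjusted p = 0.04167 for Serpina1a and 0.04405 for Serpina1c). Serpina1d had 3176, 2801 and 3122 CPM in CREBH-KO and 2595, 2745 and 2887 CPM in WT (0.15 ± 0.10, edgeR adjusted p = 0.390). Serpina1b had 5393, 4810 and 5319 CPM in CREBH-KO and 4626, 5227 and 5642 CPM in WT (0.00 ± 0.11, edgeR adjusted p = 0.992), and its groups overlapped, as those of Serpina1d did. Serpina1f, the last of the 6 Serpina1 genes, had 0 counts in every library.

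**Figure D2:**
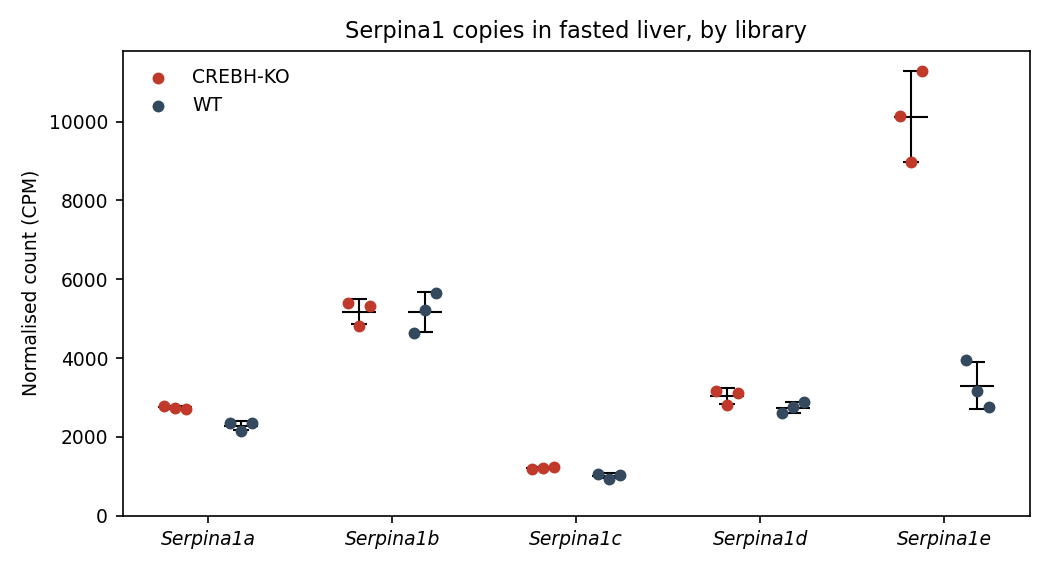
Normalised counts (CPM, vertical axis from 0) of the 5 detected Serpina1 copies in each library, CREBH-KO in red left of WT in dark blue; black bars show mean ± SD (n = 3). Serpina1e lies at 8963 to 11273 CPM in CREBH-KO and 2770 to 3954 CPM in WT, while the groups of Serpina1b and Serpina1d overlap.

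Summed over the copies, Serpina1 reached 22687, 20521 and 23661 CPM in CREBH-KO and 14598, 14239 and 14669 CPM in WT, and the sum rose (log2 fold change 0.62 ± 0.11, edgeR adjusted p = 0.00972). With Serpina1e left out, a choice made after its values were seen, the sum gave 0.12 on the log2 scale (edgeR adjusted p = 0.531). The call of the full sum was lost without CREBH-KO 3 (adjusted p = 0.0588) or WT 2 (0.0587) and with CREBH-KO 1 alone against WT (0.0795). Serpina1e made up 44.7%, 43.7% and 47.6% of the summed counts in CREBH-KO and 27.1%, 22.3% and 18.9% in WT. Serpina1b made up 23.2 ± 0.670% in CREBH-KO and 35.6 ± 3.51% in WT (SD, n = 3). For each of the 5 copies the shares of the groups did not overlap, Serpina1e being higher and the other 4 lower in CREBH-KO. The shares of a library add up to the whole, so a higher share of Serpina1e by itself lowers the others. The 5 shares are therefore not separate results. In CPM the other 4 copies had log2 fold changes between 0.00 and 0.27. A two-sided exact permutation test gave p = 0.1 for each share (0.16 adjusted over 8 shares). That is the smallest p that 3 against 3 libraries allow, so this test could not go under 0.05 whatever the shares were.

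**Figure D3:**
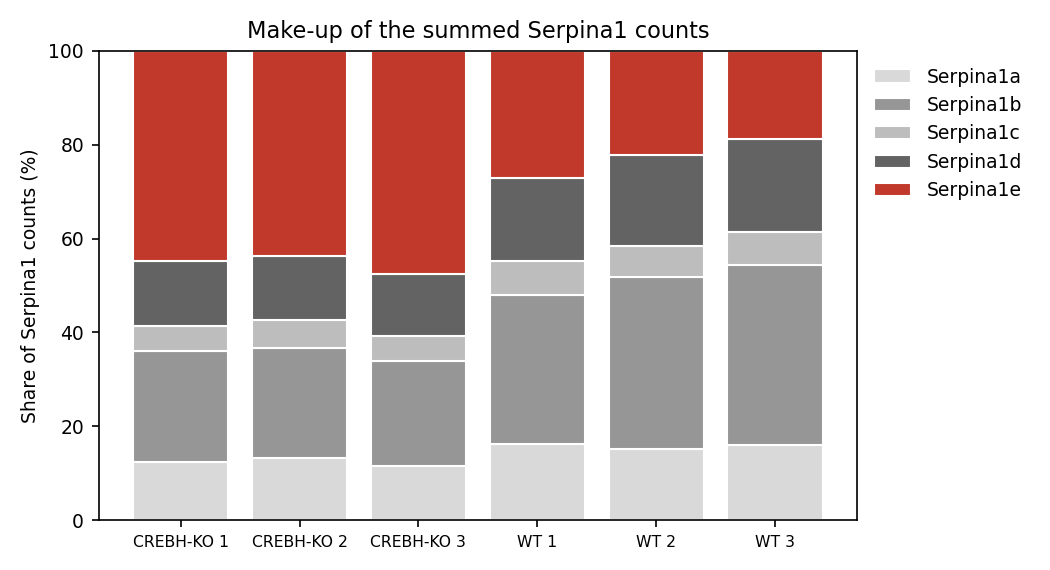
Share of the summed Serpina1 counts (%, vertical axis) taken by each copy in each library, with Serpina1e in red at the top of each bar. Serpina1e takes 43.7% to 47.6% in the 3 CREBH-KO libraries and 18.9% to 27.1% in the 3 WT libraries.

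Reads that aligned to several places were set aside before counting, which lowers the counts of near-identical copies. Of the 100-base stretches in their transcripts, 58.5% of those of Serpina1c, 42.8% of Serpina1a, 29.3% of Serpina1d, 14.8% of Serpina1b and 14.4% of Serpina1e also occurred in transcripts of other genes, among them the other Serpina1 copies and Gm8893. Among the detected copies Serpina1e thus had the smallest shared part, close to that of Serpina1b. Levels of the copies relative to each other depend on these parts, and 31.5% of the exonic bases of Serpina1c lie opposite B430119L08Rik on the other strand. Multiply aligned reads were at least 13.7% of the listed reads in CREBH-KO libraries and at least 13.8% in WT libraries.

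The promoters of the copies were also nearly alike. Windows of 300 bases from RefSeq (GRCm38.p6) were aligned with that of Serpina1e. They reached from 250 bases before to 50 after 1 start of each copy, and 239 to 250 positions were compared. The windows of Serpina1e and Serpina1b lie inside the GENCODE genes, and starts further upstream were not compared. Identity over the aligned part was 97.6% for Serpina1b, 95.9% for Serpina1a, 95.8% for Serpina1d and 95.2% for Serpina1c. The aligned parts of the copy that rose and of its nearest match, which did not pass, are shown so that the differing bases can be seen. Capitals mark bases that differ between them.
Serpina1e (chr12:103956900-103957147, minus strand): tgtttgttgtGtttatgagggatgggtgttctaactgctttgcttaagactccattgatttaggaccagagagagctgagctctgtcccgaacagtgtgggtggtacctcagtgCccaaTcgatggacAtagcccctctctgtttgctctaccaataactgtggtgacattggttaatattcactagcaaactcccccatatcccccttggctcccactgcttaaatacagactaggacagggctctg
Serpina1b (chr12:103738140-103738389, minus strand): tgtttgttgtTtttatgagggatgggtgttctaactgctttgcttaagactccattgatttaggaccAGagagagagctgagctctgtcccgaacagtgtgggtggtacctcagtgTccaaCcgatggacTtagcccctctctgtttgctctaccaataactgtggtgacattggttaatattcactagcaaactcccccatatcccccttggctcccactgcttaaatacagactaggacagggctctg
They differed at 4 mismatched bases and a gap of 2 bases. Whether these differences play a part in the result was not tested. The letters TGACG, a part of the cAMP response element, or CGTCA on the other strand, occurred in none of the 5 promoter windows and in 23.0% of all 27025 genes in the promoter table. It was present in 1 of the 26 tested serpins with a window and in none of Serpina1e, Serpina12, Serpina7 and Serpine2. Serpinb1a was not matched.

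Serpina12 encodes vaspin, an adipokine that inhibits kallikrein 7. The gene (ENSMUSG00000041567) lies in the same cluster on chromosome 12, on the minus strand from 104028769 to 104044443, and showed the steepest fall of the family. It had 0.439, 0.575 and 0.643 CPM in CREBH-KO 1, 2 and 3, against 7.86, 16.2 and 13.4 CPM in WT 1, 2 and 3. The highest CREBH-KO library stayed far below the lowest WT library, with 53 counts over CREBH-KO and 1235 over WT. The log2 fold change was -4.49 ± 0.32 (edgeR adjusted p = 9.75e-05), a 22.5-fold lower level. In whole tissue, fewer cells of a type and less RNA per cell cannot be told apart. Of the 8 adipocyte markers, Lep and Retn had no counts, and Plin1 had 1 count in CREBH-KO and none in WT. Adipoq had 5 counts in CREBH-KO and 1 in WT, and Cidea had 1 in CREBH-KO and 7 in WT. The other 3 were tested and 1, Pparg, fell. Lipe averaged 15.6 ± 2.43 CPM in CREBH-KO and 18.4 ± 1.30 CPM in WT and did not pass. Fabp4 averaged 7.21 ± 0.648 CPM in CREBH-KO and 5.17 ± 0.728 CPM in WT. Its groups did not overlap, with CREBH-KO higher, and it did not pass. The summed level of all 8 was 25.9 to 30.7 CPM in CREBH-KO and 33.6 to 35.2 CPM in WT. The part of these markers in the result was not tested. Klk7, the protease that vaspin inhibits, had no counts in either group.

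Serpina7 encodes thyroxine-binding globulin, a non-inhibitory carrier of thyroid hormone in plasma. It lies on chromosome X from 139079257 to 139085236 (minus strand) and is the only clade a member outside the chromosome 12 cluster. It had 3.42, 4.67 and 3.00 CPM in CREBH-KO and 23.8, 15.6 and 5.43 CPM in WT. The WT libraries were widely spread, and the lowest of them was close to the highest CREBH-KO library. The log2 fold change was -2.02 ± 0.45 (edgeR adjusted p = 0.0231). The call was lost without any 1 library except WT 1 or WT 3 (adjusted p up to 0.0883), in limma-voom (0.0809), in edgeR's robust fit (0.0926) and with CREBH-KO 1 alone (0.252). Serpina6, the other hormone carrier of the clade, encodes corticosteroid-binding globulin; it had 85.7, 107 and 108 CPM in CREBH-KO and 102, 106 and 99.6 CPM in WT and did not pass (edgeR adjusted p = 0.876).

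The mouse Serpina3 copies correspond to the human gene for alpha-1-antichymotrypsin, an acute phase protein. None of the 9 tested copies passed, and Serpina3b, with 23 counts in CREBH-KO and 14 in WT, was not tested. At an unadjusted p under 0.05 edgeR counted 1 of the 9, Serpina3n, which DESeq2 also called at its adjusted threshold. The copies were less alike than those of Serpina1, with 70.3% to 91.1% identity of reading frames over the 36 pairs without Serpina3g. The annotated frame of Serpina3g has 248 codons, against 408 to 445 in the others, and pairs with it went down to 37.5%. At most 3.49% of the 100-base stretches of a copy occurred in other genes, leaving out genes whose exons overlap it. Serpina3k and Serpina3m overlap on the same strand, in 2.92% and 3.49% of their exonic bases, so stretches shared within this pair were not counted. Serpina3k took 89.9% to 93.3% of the summed Serpina3 counts in CREBH-KO and 88.9% to 92.3% in WT.

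Serpina3k, an inhibitor of tissue kallikrein, had 10528, 7517 and 9938 CPM in CREBH-KO and 8698, 7898 and 8632 CPM in WT. The groups overlapped, with the lowest and the highest value both in CREBH-KO (log2 fold change 0.15 ± 0.14, edgeR adjusted p = 0.546). Serpina3m had 505, 454 and 426 CPM in CREBH-KO and 371, 497 and 519 CPM in WT (-0.00 ± 0.13, edgeR adjusted p = 0.997). Serpina3n, an acute phase inhibitor of granzyme B and cathepsin G, had 329, 374 and 268 CPM in CREBH-KO and 347, 474 and 525 CPM in WT. Its groups overlapped through WT 1 (log2 fold change -0.47 ± 0.16, edgeR adjusted p = 0.109). Serpina3n passed without WT 1 (-0.64, adjusted p = 0.0182). It also passed in DESeq2 (-0.48, adjusted p = 0.0286) and when low counts were left unfiltered (-0.49, edgeR adjusted p = 0.0011).

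The other Serpina3 copies stayed under 8 CPM in each library. Serpina3c had 1.20, 5.98 and 1.07 CPM in CREBH-KO and 0.905, 1.60 and 1.56 CPM in WT. The high value came from CREBH-KO 2 alone: the log2 fold change of 1.02 ± 0.63 (edgeR adjusted p = 0.352) became -0.25 without that library. Serpina3j was also highest in CREBH-KO 2, at 1.08 CPM against 0.293 and 0.275 CPM in CREBH-KO 1 and 3 and 0.336 to 0.532 CPM in WT, and its log2 fold change of 0.31 became -0.62 without that library. Serpina3g, an intracellular inhibitor of cysteine cathepsins, had 7.46, 6.42 and 5.97 CPM in CREBH-KO and 3.39, 6.10 and 5.36 CPM in WT (0.42 ± 0.23, edgeR adjusted p = 0.284). Serpina3a, Serpina3f and Serpina3i had log2 fold changes of 0.23, 0.09 and 0.40 and did not pass. The summed Serpina3 counts averaged 10130 ± 1571 CPM in CREBH-KO and 9332 ± 411 CPM in WT (0.12 ± 0.13, edgeR adjusted p = 0.625).

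None of the remaining clade a genes that were tested passed. Serpina10, the protein Z-dependent inhibitor of factor Xa, averaged 133 ± 4.27 CPM in CREBH-KO and 135 ± 10.2 CPM in WT (log2 fold change -0.02, edgeR adjusted p = 0.917). Serpina11 had 29.8, 33.0 and 31.5 CPM in CREBH-KO and 23.9, 23.6 and 30.5 CPM in WT (0.27, edgeR adjusted p = 0.167). Its groups overlapped through WT 3, and it passed without that library. Of its exonic bases 40.8% lie within the same-strand gene Gm28577. Serpina5, protein C inhibitor, had 14 counts in CREBH-KO and 7 in WT and was not tested. Serpina9 had 5 counts in CREBH-KO and 3 in WT. Serpina16 had 6 counts in CREBH-KO and 0 in WT; neither gene was tested.

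Clade b serpins act inside cells and many are made by blood cells and lining epithelia. Of the 26 clade b genes, 14 had no counts, 6 had 3 to 7 counts and 6 were tested. Having 0 counts over 198237177 counts allows a level of up to 0.0152 CPM. All members of the Serpinb3 group and Serpinb9c to Serpinb9g were at 0, but 52.3% of the 100-base stretches of Serpinb9f and 38.5% of those of Serpinb9g occur in other genes.

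Serpinb1a, an inhibitor of neutrophil elastase, cathepsin G and proteinase 3, was the clade b gene that rose. It had 35.9, 22.8 and 23.9 CPM in CREBH-KO and 20.04, 13.6 and 15.3 CPM in WT. The groups did not overlap, with CREBH-KO 1 highest and the lowest CREBH-KO library just above WT 1. The log2 fold change was 0.75 ± 0.20 (edgeR adjusted p = 0.0422), and the call was lost without any 1 library except WT 1 (adjusted p up to 0.154), in edgeR's robust fit (0.0591) and with CREBH-KO 1 alone (0.0534). Its 3 target proteases were at or near 0: Ctsg had no counts, Elane had 0 counts in CREBH-KO and 21 in WT, and Prtn3 had 1 in CREBH-KO and 5 in WT. The summed neutrophil markers stood at 0.673 to 1.93 CPM in CREBH-KO and 0.293 to 0.983 CPM in WT, and their part in the result was not tested.

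The other tested clade b genes did not pass. Serpinb9, the inhibitor of granzyme B, had 8.58, 6.73 and 5.69 CPM in CREBH-KO and 6.46, 6.38 and 5.69 CPM in WT (edgeR adjusted p = 0.578). Serpinb6a had 9.65 ± 1.74 CPM in CREBH-KO and 12.3 ± 2.13 CPM in WT (log2 fold change -0.34 ± 0.17, edgeR adjusted p = 0.258), and 29.3% of its exonic bases lie opposite genes on the other strand. Serpinb1c was low, at 0.348 ± 0.130 CPM in CREBH-KO and 0.705 ± 0.489 CPM in WT. Its WT value rested on WT 2, at 1.25 CPM (-0.99 ± 0.57, edgeR adjusted p = 0.321). Serpinb6b and Serpinb8 had log2 fold changes of 0.54 and -0.09.

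Serpine2 encodes protease nexin-1, an inhibitor of thrombin, plasmin and plasminogen activators. It lies on chromosome 1 from 79794197 to 79861180 (minus strand). It had 32.9, 21.6 and 26.0 CPM in CREBH-KO and 17.0, 14.3 and 8.45 CPM in WT, and every CREBH-KO library was above every WT library. Serpine2 rose (log2 fold change 1.02 ± 0.24, edgeR adjusted p = 0.0294), although the call was lost without CREBH-KO 1, CREBH-KO 3 or WT 2 (adjusted p up to 0.0853), in edgeR's robust fit (0.0663) and with CREBH-KO 1 alone (0.114). Of 8 stellate cell and fibroblast markers 1 rose, Dcn (125 ± 9.98 CPM in CREBH-KO and 84.8 ± 5.59 CPM in WT), and 7 did not pass, with log2 fold changes between -0.08 (Lrat) and 0.70 (Col1a2). The summed level of the 8, to which Dcn contributed most, was 202 to 232 CPM in CREBH-KO and 144 to 178 CPM in WT. The part of these cells in the result was not tested. Serpine3 had 5 counts in CREBH-KO and 1 in WT.

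**Figure D4:**
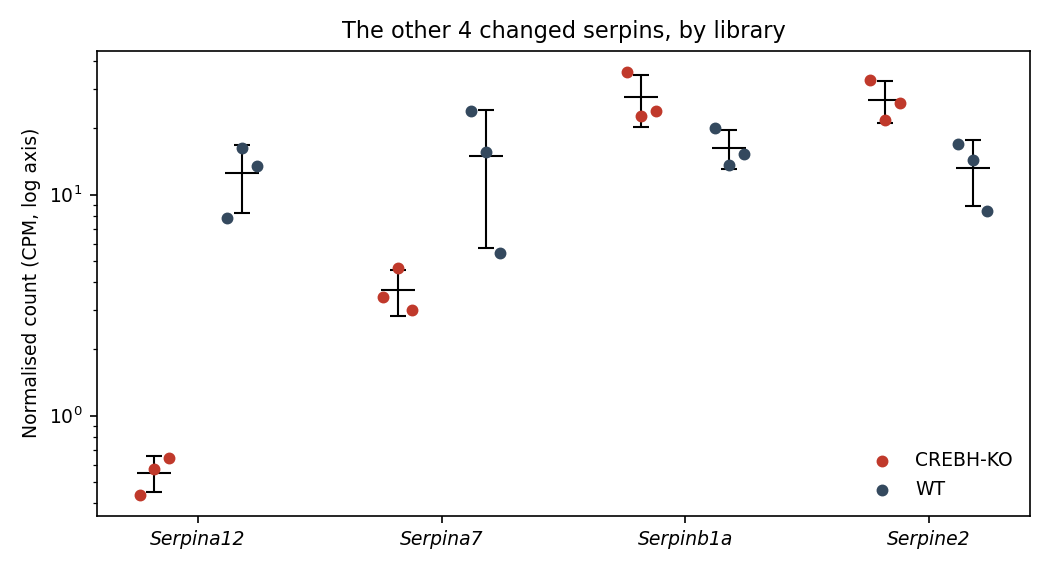
Normalised counts (CPM, log axis) of Serpina12, Serpina7, Serpinb1a and Serpine2 in each library, CREBH-KO in red left of WT in dark blue; black bars show mean ± SD (n = 3). Serpina12 is set furthest apart, at 0.439 to 0.643 CPM in CREBH-KO and 7.86 to 16.2 CPM in WT, while the lowest WT value of Serpina7 (5.43 CPM) is close to the highest CREBH-KO value (4.67 CPM).

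The plasma inhibitors of coagulation, fibrinolysis and complement in clades c, d, f and g did not pass. Serpinc1, antithrombin, had 2200, 2079 and 2181 CPM in CREBH-KO and 1894, 1941 and 1814 CPM in WT. Its groups did not overlap, but the difference was small (log2 fold change 0.19 ± 0.08, edgeR adjusted p = 0.192), and 34.4% of its exonic bases lie opposite Zbtb37. Serpind1, heparin cofactor II, averaged 370 ± 36.8 CPM in CREBH-KO and 375 ± 9.14 CPM in WT (-0.02, edgeR adjusted p = 0.926). Serpinf2, alpha-2-antiplasmin, averaged 789 ± 109 CPM in CREBH-KO and 825 ± 47.6 CPM in WT (-0.06, edgeR adjusted p = 0.768). Serpinf1, pigment epithelium-derived factor, is not one of these inhibitors and did not pass either. It averaged 619 ± 21.4 CPM in CREBH-KO and 642 ± 30.5 CPM in WT (-0.05, edgeR adjusted p = 0.728). Serping1, C1 inhibitor, averaged 640.1 ± 50.7 CPM in CREBH-KO and 634 ± 16.7 CPM in WT (0.01, edgeR adjusted p = 0.940).

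Serpinh1 encodes HSP47, a collagen chaperone of the endoplasmic reticulum that inhibits no protease. It had 5.01, 6.83 and 5.54 CPM in CREBH-KO and 3.83, 5.23 and 4.52 CPM in WT and did not pass (0.36 ± 0.19, edgeR adjusted p = 0.290). In clade i, Serpini1, neuroserpin, had 18, 2 and 7 counts in CREBH-KO and 0, 1 and 1 in WT. The ratio was 14.2, with a 95% exact interval of 3.57 to 123 that covers counting error only, and the gene was not tested; Serpini2 had no counts.

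Set side by side per length of exon, the order of the most abundant serpins differed between the genotypes. In CREBH-KO, Serpina1e stood first at 6263 ± 714 CPM per kilobase, followed by Serpina3k at 4535 ± 776. In WT, Serpina3k stood first at 4088 ± 216 CPM per kilobase. Serpina1b (2139 ± 211), Serpina1e (2040 ± 372) and Serpina1d (1967 ± 105) followed there and by this length did not differ from each other beyond their spread. Serpina1a and Serpina1c took places 5 and 6 in both genotypes, at 1498 ± 23.3 and 889.6 ± 20.9 CPM per kilobase in CREBH-KO and 1247 ± 63.5 and 742 ± 45.8 in WT. Serpinf2, Serping1, Serpina3m, Serpinf1 and Serpinc1 made the next tier, at 252 to 339 CPM per kilobase in CREBH-KO and 220 to 355 in WT. With the longest transcript in place of all exons the first 6 places over all libraries stayed the same, while Serpinc1 moved to place 7 from place 11. The mean over all libraries went from 2141 to 2934 CPM per kilobase for Serpina1b and stayed at 2072 for Serpina1d. The closeness of these copies in WT thus depends on the length used.

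**Figure D5:**
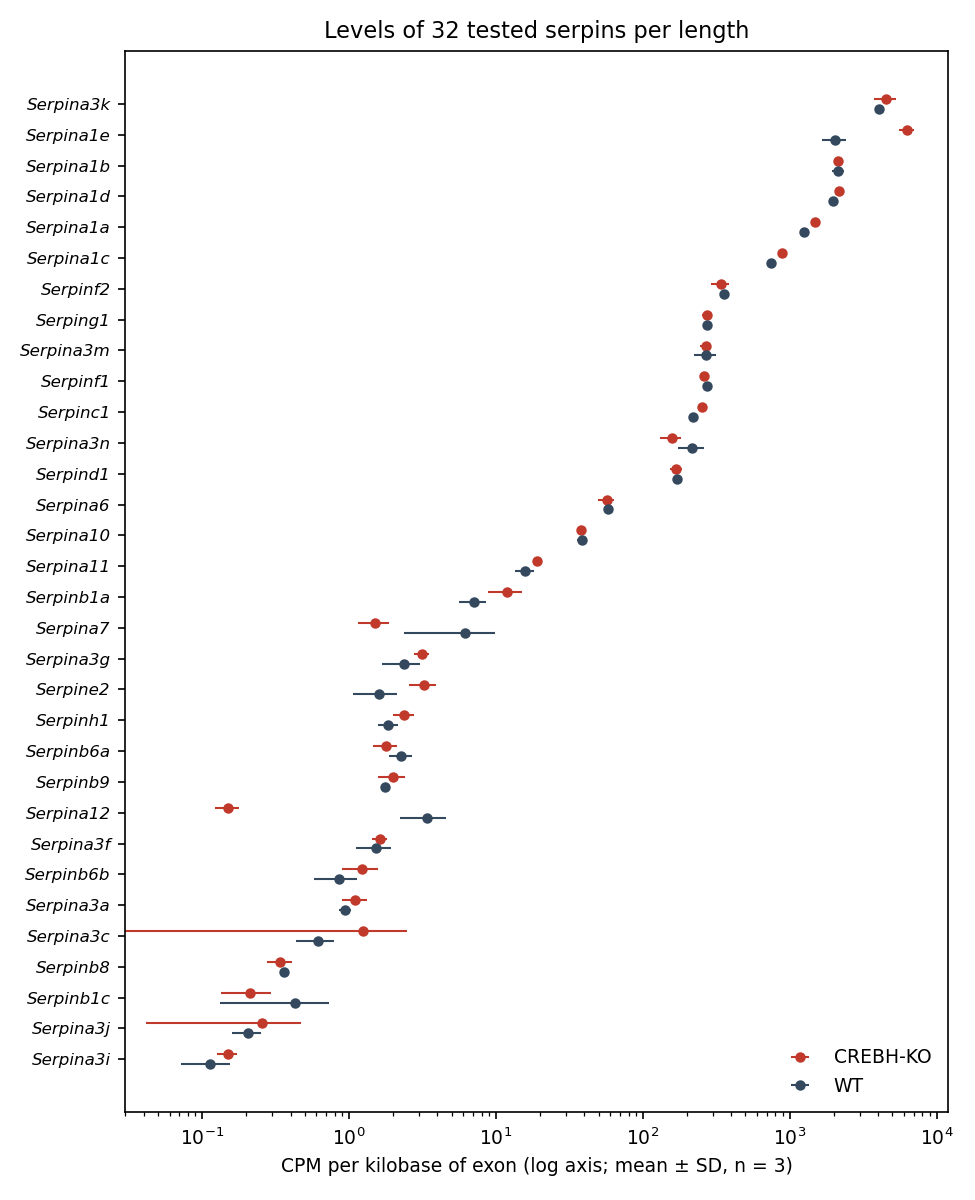
Levels of 32 of the 33 tested serpins in CPM per kilobase of exon (log axis), ordered by the mean over all libraries; red points are CREBH-KO and dark blue points WT, with bars for SD (n = 3). The red bar of Serpina3c reaches the axis edge because its SD exceeds its mean. Serpina1e stands at 6263 in CREBH-KO and 2040 in WT, and Serpina12 shows the widest gap.

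Genes that work with the serpins were read from a list of 37 proteases, cofactors, receptors and clients. Of 32 tested, 1 rose, 2 fell and 29 did not pass, a share of 9.38% beside 10.4% of all tested genes; the median log2 fold change was -0.05. Proz encodes protein Z, the cofactor of Serpina10. It had 246, 205 and 237 CPM in CREBH-KO and 312, 342 and 343 CPM in WT and fell (log2 fold change -0.54 ± 0.09, edgeR adjusted p = 0.00757), while Serpina10 itself did not pass. Lman1, a cargo receptor for export of secreted proteins from the endoplasmic reticulum, had 153, 151 and 152 CPM in CREBH-KO and 206, 208 and 191 CPM in WT and fell (-0.41 ± 0.07, edgeR adjusted p = 0.00871). Vtn encodes vitronectin, an adhesive glycoprotein of plasma. It had 2768, 2724 and 3029 CPM in CREBH-KO and 2140, 2089 and 2250 CPM in WT and rose (0.40 ± 0.09, edgeR adjusted p = 0.0272). The calls of Lman1 (without WT 2, adjusted p = 0.0519) and Vtn (without WT 2 or CREBH-KO 3, up to 0.125) were lost.

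The coagulation proteases on the list had log2 fold changes between -0.17 and 0.13, with F2 (prothrombin) at 2056 ± 82.8 CPM in CREBH-KO and 1874 ± 127 CPM in WT. The complement proteases C1ra, C1s1, Masp1 and Masp2 had log2 fold changes of -0.17 to -0.00. Plg, which encodes plasminogen, had 1831 ± 125 CPM in CREBH-KO and 1912 ± 208 CPM in WT. None of these passed. Of the 5 collagen clients of Serpinh1 none passed, with values from -0.43 in Col4a2 to 0.70 in Col1a2. Agt, which encodes angiotensinogen and is a serpin by structure whose symbol falls outside the rule, had 761 ± 64.7 CPM in CREBH-KO and 698 ± 55.9 CPM in WT (0.13, edgeR adjusted p = 0.466).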

How the data were processed

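The authors deposited raw read counts, 1 file a library; per the labels, the sample titles carry the name HTSeq. For the aligner, genome build, counting version and strandedness, the sources used here give nothing. Each of the 55536 identifiers was found in GENCODE M21 (GRCm38), which supplied symbols, positions and exon lengths and from which the build was inferred. The summary lines for reads not counted in a single gene (27.4% to 31.2% of the listed reads) were left out. They held reads outside any gene (7.96% to 10.4%), ambiguous between genes (5.81% to 6.45%) or aligned to several places (13.7% to 15.0%). With strand unknown, reads of antisense partners cannot be told apart.

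The fit used edgeR 4.0.16 (R 4.3.3) with filterByExpr (minimum count 10, minimum total 15; 15589 genes), TMM factors (0.967 to 1.05), the quasi-likelihood test without covariates and Benjamini-Hochberg adjustment over all tested genes. Each SE was obtained as |log2 fold change| over the square root of F. Copies were also summed into 1 row and refitted. The test was also run on simulated counts with known changes. Those counts were drawn from the model that the test fits, so that run checks the code and not the calls. A chi-square test separated every pair of replicates by more than sampling noise (at least 18.8 per degree of freedom).

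Alternatives were other scalings and filters, edgeR's robust fit, DESeq2 1.42.0, limma-voom (limma 3.58.1), each library left out in turn, and CREBH-KO 1 alone against WT. Named were every changed serpin, the Serpina1 and Serpina3 copies, Serpina12, the most abundant member of each clade per length, serpins with an absolute log2 fold change of at least 1 and 0.5 CPM that did not pass, and changed partner genes; other genes were added, after their values were seen, to account for the members. The members and lists were chosen with earlier results of these data known. Protein sequences were not used here, and 1 tested serpin that did not pass is counted but not reported by name.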

Additional observations from a re-analysis of the deposited data

Results flagged for a closer look

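The pseudogene Serpinb1-ps1, which lies beside Serpinb1a and falls outside the rule for members, had 7 counts over the CREBH-KO libraries (5, 1 and 1) and 1 over the WT libraries (1, 0 and 0). It was picked out as a signal outside the members, was too low to be tested, and the difference rests on few counts, mostly of CREBH-KO 1.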

How the results depend on the processing

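Serpina1e and Serpina12 kept their direction and call under all 15 alternatives run; with 1 library left out, Serpina12 ranged from -4.75 to -4.26. Of the 33 tested serpins 5 were called, against 8 in DESeq2, 4 in limma-voom, 2 in edgeR's robust fit and 2 to 6 with 1 library left out. With library size alone 7 were called, and Serpina1a and Serpina1c joined the calls. Without a filter, 45 serpins were tested and Serpini1 and Serpina3n joined the calls. Over all genes the number called ranged from 228 with CREBH-KO 1 alone to 2456 without a filter. The summed Serpina1 counts (0.62) ranged from 0.57 to 0.68 with 1 library left out and gave 0.62 with CREBH-KO 1 alone, where the call was lost; the single rows were 0.27 for Serpina1a, 0.0025 for Serpina1b, 0.26 for Serpina1c and 0.15 for Serpina1d, and the sum without Serpina1e gave 0.12. The share difference of Serpina1e ranged from 20.7 to 24.8 percentage points with 1 library left out. The summed Serpina3 counts (0.12) ranged from 0.026 to 0.24 with 1 library left out and gave 0.26 with CREBH-KO 1 alone, with single rows of -0.0012 for Serpina3m and -0.47 for Serpina3n. The calls of Proz, Lman1 and Vtn were lost with CREBH-KO 1 alone (edgeR adjusted p = 0.168, 0.189 and 0.302). Leaving out libraries leaves fewer samples to fit; for the other settings the cause was not tested.

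The following genes changed sign; none of them was called, and apart from Serpina3a, Serpina3c and Serpina3j (0.23, 1.02 and 0.31) their log2 fold changes lay between -0.06 and 0.09. With library size alone, which moved the median of all genes to 0.098, Serpina3m was 0.073, Serpind1 0.055 and Serpinf2 0.0069. With upper-quartile factors Serpina3m was 0.035 and Serpind1 0.017. Serpina1b was -0.0059 with DESeq2's size factors and in DESeq2, and -0.020 without a filter, where Serping1 was -0.0086. Serpina3m was 0.0045 with the stricter filter and 0.0079 in limma-voom. With CREBH-KO 1 alone the values were -0.020 for Serpina3a, -0.19 for Serpina3c, -0.036 for Serpina3f, -0.60 for Serpina3j, 0.11 for Serpina3m, 0.094 for Serpinf2 and -0.0043 for Serping1. With 1 library left out the ranges were -0.082 to 0.068 for Serpina1b, -0.25 to 1.40 for Serpina3c, -0.13 to 0.22 for Serpina3f, -0.62 to 0.63 for Serpina3j, -0.15 to 0.087 for Serpina3m, -0.080 to 0.059 for Serpind1, -0.17 to 0.035 for Serpinf2 and -0.044 to 0.070 for Serping1. No paired analysis was possible because the labels carry no replicate numbers. Depth limits the 12 members with few counts and the 16 with none.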
